A study of Mus musculus with 3 samples.

Results

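Apoe, clusterin (Clu) and 5 further genes of lipid handling (Lpl, Abca1, Lrp1, Trem2 and Dbi) were followed across the cell types of dissociated mouse islets. These 7 genes were chosen by name, with earlier results of these data known. All 7 were found in both deposited tables, among 15741 genes that the tables share. All 7 also passed the filter on low values used for the tests.

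Lipids travel between cells in particles carried by apolipoproteins. Apolipoprotein E is made by macrophages and glia as well as liver, and is taken up by receptors of the LDL receptor family, of which Lrp1 is a large member. Clusterin, also called apolipoprotein J, is a secreted chaperone that travels in lipoprotein particles. Abca1 moves cholesterol and phospholipid out of cells onto apolipoproteins, and lipoprotein lipase (Lpl) splits the triglyceride that particles carry. Trem2 is a receptor of myeloid cells that binds lipids and apolipoproteins and signals through the adaptor Tyrobp. Dbi is the acyl-CoA binding protein, which holds fatty acyl-CoA inside cells and is also secreted as a peptide.

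Islets came from 6 mice that carried Ngn3-CreERT:R26-CAG-TdTomato, in which tamoxifen switches on a Cre recombinase driven from Ngn3 and the recombined cells make a red reporter. All samples were collected 10 days after tamoxifen and form 1 group, with no untreated or Cre-negative sample, so the comparisons below are between cell types and not between treatments. Droplet 3′ libraries were made from 3 samples, and replicates 2 and 3 each pool 2 mice. Replicate 1 (library 1) holds 1146 cells and 27474046 unique molecular identifiers (UMIs, 1 per captured RNA molecule). Replicates 2 and 3 share a joint table of 13042 distinct cells and 196833349 UMIs, after a copied set of 3008 columns was dropped. The joint table has 3 sets of barcodes that no label ties to a replicate. It was therefore counted as 1 library, its barcode blocks give values only, and tests rest on n = 2 libraries.

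Cell classes were set per cell, from 853 cells of library 1 and 11072 cells of the joint table. Endocrine cells were defined by hormone RNA per 10000 UMIs: at least 3000 of Ins1 plus Ins2 for beta cells, and at least 200 of Gcg, Sst or Ppy for alpha, delta and pancreatic polypeptide (PP) cells. Cells over the limit for more than 1 hormone, 98 and 1079, were set aside. Other cells needed at least 3 detected markers of a class and a marker sum of at least 20 per 10000. Cells with myeloid markers were split at 3 UMIs of the complement genes C1qa, C1qb and C1qc, into C1q-positive macrophages (32 cells in library 1, 252 in the joint table) and C1q-low myeloid cells (11 and 92). Mural cells, the contractile cells around vessels, numbered 12 and 176, and collagen-rich stromal cells 29 and 79. Schwann cells, the glia of peripheral nerve, numbered 4 and 47. Beta, alpha, delta and PP cells numbered 468, 104, 25 and 18 in library 1 and 7018, 926, 230 and 236 in the joint table.

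The classes were checked against their markers. In the macrophages all 11 markers were detected in both tables, and their summed C1q level was 98.8 and 114.55 per 10000. In the Schwann cells Sox10 was detected in both tables and Fabp7 was at 45.1 and 34.1 per 10000. Stromal cells carried Col1a1 at 32.6 and 27.9 per 10000. Of the 29 stromal cells of library 1, however, 17 also held at least 3 of 6 mesothelial markers (Msln, Upk3b, Krt19, Lrrn4, Upk1b and Wt1), against 4 of 79 in the joint table. Member differences and list counts that rest on stromal cells are therefore given with and without these cells. Insulin RNA in macrophages and mural cells was higher in the joint table. The median insulin level in macrophages was 127 per 10000 (library 1) and 958 (joint table), and in mural cells 206 and 1543. The source of this insulin RNA was not tested.

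Promoters of 2 members whose levels set macrophages apart are shown: Apoe, also high in Schwann cells, and Trem2, highest in myeloid cells. Each is 300 bases of RefSeq sequence on GRCm38.p6, from 250 bases before to 50 after the gene's start, 5′ to 3′ on the strand of the gene. Capitals mark matches, on either strand, to GAGGAA (the core bound by the myeloid factor PU.1), ACAAAG (a SOX core) or AGGTCA (a nuclear receptor half-site). No capitals overlap. The windows lie at chr7:19699139-19699438 (minus strand) and chr17:48346151-48346450 (plus strand).
Apoe: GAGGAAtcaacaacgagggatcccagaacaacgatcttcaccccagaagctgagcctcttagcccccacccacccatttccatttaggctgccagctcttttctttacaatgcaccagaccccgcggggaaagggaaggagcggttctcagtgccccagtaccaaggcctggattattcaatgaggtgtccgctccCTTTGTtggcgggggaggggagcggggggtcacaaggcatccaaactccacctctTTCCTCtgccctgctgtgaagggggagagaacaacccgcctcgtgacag
Trem2: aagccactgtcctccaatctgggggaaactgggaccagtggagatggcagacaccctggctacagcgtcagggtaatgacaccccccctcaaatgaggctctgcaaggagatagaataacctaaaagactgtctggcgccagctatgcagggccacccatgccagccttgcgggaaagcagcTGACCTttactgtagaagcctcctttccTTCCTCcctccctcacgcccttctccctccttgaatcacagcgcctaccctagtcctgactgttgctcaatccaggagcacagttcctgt
The Apoe window held 2 matches to the PU.1 core and 1 to the SOX core. The Trem2 window held 1 match to the PU.1 core and 1 to the half-site. Among 32851 windows of the same length, 28.3% held the PU.1 core, 18.7% the SOX core and 16.3% the half-site. A match here describes letters and not a bound site.

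Apoe, the lipid carrier (chr7:19696109-19699188), was abundant in macrophages and Schwann cells. A level is the mean over cells of the gene's UMIs per 10000 UMIs of the cell. In C1q-positive macrophages the Apoe level was 209 per 10000 (library 1) and 227 (joint table), and 219, 238 and 234 in the barcode blocks. In Schwann cells it was 235 in the 4 cells of library 1 and 283 in the joint table, with 267, 348 and 269 in the blocks. Stromal cells held 9.30 and 71.5. The other classes with at least 10 cells in both tables were lower: C1q-low myeloid cells at 8.05 and 6.17, endothelial cells at 1.23 and 1.61, mural cells at 0.293 and 0.919, and beta cells at 0.402 and 0.146. In each table and block the Schwann value stood above the macrophage value. The ranges over tables did not overlap from the macrophages down to the C1q-low cells. From endothelial cells down through alpha, PP, mural, delta and beta cells each class overlapped the next.

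**Figure D1:**
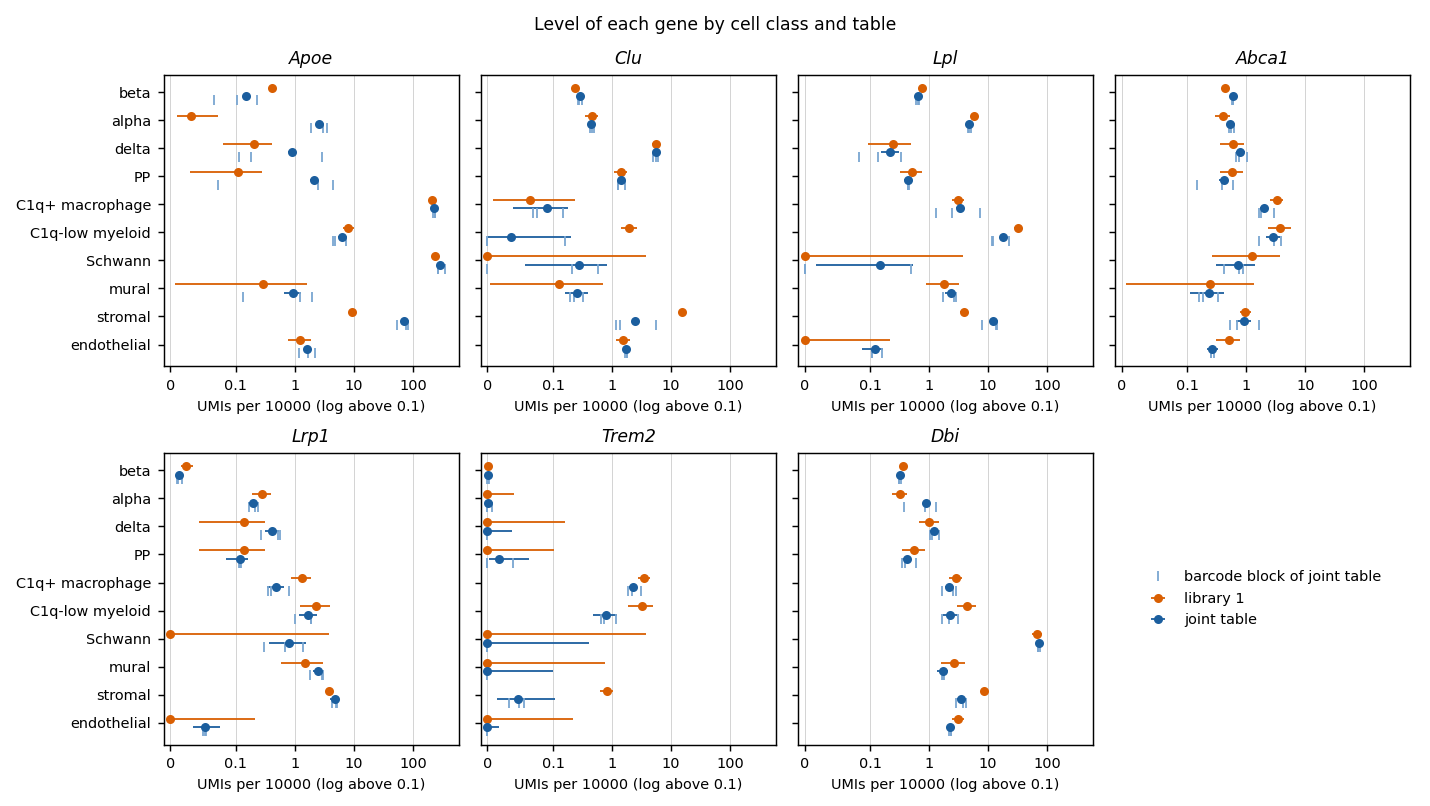
Level of each of the 7 genes (x axis, UMIs per 10000, logarithmic above 0.1) in 10 cell classes, with points for library 1 and the joint table, exact 95% Poisson intervals for counting error, and ticks for the 3 barcode blocks. Schwann points of library 1 rest on 4 cells. Apoe stands highest in macrophages and Schwann cells, Clu is at 5.58 and 5.51 in delta cells and under 0.1 in macrophages, and Dbi is at 67.6 and 73.4 in Schwann cells.

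Within the macrophages Apoe was found in nearly every cell. It had at least 1 UMI in 32 of 32 cells of library 1 and 247 of 252 cells of the joint table. The median cell held 166 and 216 per 10000, with quartiles of 73.3 and 322 in library 1 and of 119 and 326 in the joint table. The C1q-low myeloid cells, which share Lyz2, Ctss and Fcer1g with the macrophages, stood far lower: their median was 4.78 (library 1) and 0 (joint table). The C1q genes that split these classes and Apoe thus moved together, and since the split used C1q alone this is a description of the classes. All 47 Schwann cells of the joint table held Apoe, with a median of 285 and quartiles of 200 and 372, and none held a C1q UMI, which allows a summed C1q level of up to 0.401 per 10000 by the exact interval.

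**Figure D2:**
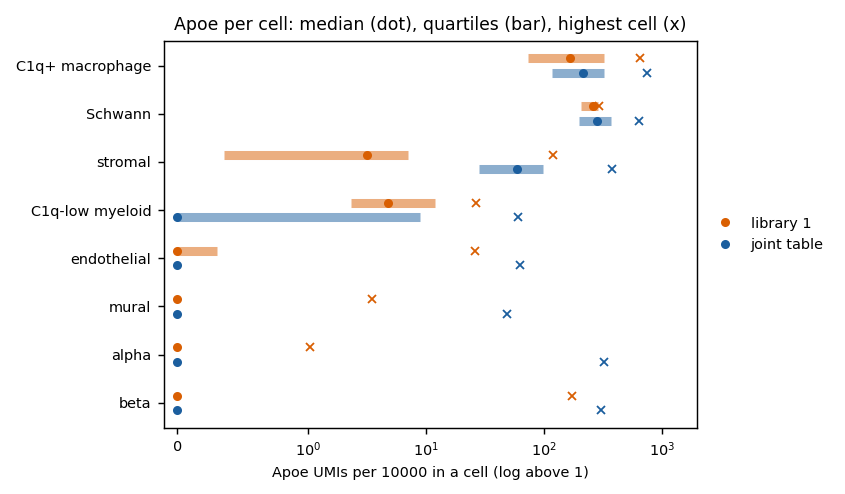
Apoe per cell (x axis, UMIs per 10000, logarithmic above 1) in 8 classes and both tables, with the median as a dot, the quartiles as a bar and the highest cell as a cross. Medians of macrophages and Schwann cells lie between 166 and 285, while those of alpha, beta and mural cells are at 0 with single cells far above.

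In endocrine cells Apoe was absent from most cells, and in some classes a few cells held most of it. Alpha cells of the joint table averaged 2.53 per 10000 against 0.0308 in library 1, but 12 of 926 cells with at least 50 per 10000 held 64.1% of the Apoe UMIs. All 12 also carried at least 3 markers of Schwann cells (10 cells), stromal cells (3 cells) or macrophages (2 cells), some of more than 1 class. In the joint table's PP cells 2 such cells held 75.1% of Apoe UMIs, and both carried macrophage markers. Beta cells of library 1 had 1 such cell, with Schwann markers, that held 83.0%, and alpha, delta and PP cells of that library had none. In the joint table's delta cells 2 such cells, both with macrophage markers, held 30.6%. The 5 such beta cells of the joint table all carried markers of 1 of these classes, but they held only 29.9% of the Apoe UMIs. Leaving these cells out put the level at 0.49 in alpha cells of the joint table and at 0.0346 and 0.0628 in beta cells of library 1 and the joint table. After each cell was thinned to 2000 UMIs, Apoe was found in 1.29% and 0.966% of beta cells (466 and 6936 cells), against 100% and 98.6% of macrophages (31 and 215 cells). Why these cells hold markers of another class was not tested.

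Clusterin (chr14:65968483-65981547) followed a different order. Its level in delta cells, which make somatostatin, was 5.58 (library 1) and 5.51 (joint table), with 5.57, 4.92 and 5.97 in the blocks. PP cells held 1.42 and 1.43, alpha cells 0.452 and 0.446, and beta cells 0.239 and 0.283. The 4 endocrine classes did not overlap, and both tables gave the same order. C1q-positive macrophages were lowest of the 10 plotted classes by the mean of both tables, at 0.0645 and 0.0902, from 2 and 8 UMIs in all. C1q-low myeloid cells held 1.96 in library 1, from 41 UMIs that were all in 1 of 11 cells. In the joint table they held 0.0358, from 1 UMI in 92 cells, below the macrophages. Low Clu was thus not particular to the C1q-positive cells. The stromal level differed between tables, 15.3 and 2.45. The 12 duct cells of the joint table all held Clu, at a level of 157. The 3 duct cells of library 1 averaged 19.997, but 1 of them held 93.5% of the UMIs, and the exact interval of 15.3 to 25.6 overlapped the stromal interval of 14.5 to 16.1.

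Trem2 (chr17:48346401-48354147), the myeloid lipid receptor, was highest in myeloid cells. Outside them it reached 0.812 in stromal cells of library 1, against 0.0461 in the joint table, and 2.07 in the 3 duct cells of library 1, of which 1 cell held 90.9% of the UMIs. Its level in macrophages was 3.52 and 2.24 per 10000, with 1.89, 3.04 and 2.18 in the blocks. C1q-low myeloid cells held 3.17 and 0.790, which overlaps the macrophage range. Beta cells had 2 UMIs among 468 cells of library 1 and 6 among 7018 of the joint table. In the joint table alpha cells had 1 UMI and PP cells 2, both in 1 cell, and in library 1 neither class had any. Delta cells had none in either table, which allows up to 0.159 and 0.0370 by the exact interval. Mural and Schwann cells of both tables had none. The share of macrophages with a Trem2 UMI was 71.9% and 41.3% (median depth 7284.5 and 3520.5 UMIs). Thinned to 2000 UMIs, the shares were 41.9% (24.5% to 60.9%) and 29.8% (23.7% to 36.4%), whose exact 95% intervals overlap. In beta cells, which should lack the gene, the thinned share was 0% in both tables.

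Abca1 (chr4:53030787-53159895), the cholesterol exporter, was highest in myeloid cells and was detected in all 10 classes of the plot. C1q-low cells held 3.81 and 2.87, and macrophages 3.29 and 1.99, and these ranges overlapped. Stromal cells held 0.971 and 0.914, delta cells 0.597 and 0.798, beta cells 0.435 and 0.587 and alpha cells 0.397 and 0.536. Mural cells were lowest of these 10 classes, at 0.244 and 0.230, from 1 and 10 UMIs. B cells of the joint table, which are not in the plot, were at 0.

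Lrp1 (chr10:127538161-127621148), the uptake receptor, was highest in stromal cells at 3.75 and 4.77. Mural cells held 1.45 and 2.49 and C1q-low myeloid cells 2.31 and 1.70, which overlap. Macrophages stood lower at 1.31 and 0.474. Beta cells at 0.0244 and 0.0125 and endothelial cells at 0 and 0.0521 were lowest, below alpha cells at 0.276 and 0.194 and delta cells at 0.135 and 0.411.

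Lpl (chr8:68880491-68907448), the triglyceride lipase, had its highest level in the C1q-low myeloid cells, at 32.1 and 17.8 per 10000 with 22.6, 12.2 and 11.5 in the blocks. It was unevenly spread there: 1 cell held 54.7% of its UMIs in library 1, and 39 of 92 cells of the joint table held any. C1q-positive macrophages held 3.12 and 3.31, with 2.48, 7.24 and 1.29 in the blocks. Stromal cells held 3.85 and 12.1 and mural cells 1.78 and 2.30. Among endocrine cells alpha cells held 5.87 and 4.78, beta cells 0.770 and 0.638, PP cells 0.510 and 0.439 and delta cells 0.241 and 0.220. The endocrine order was alpha, beta, PP, delta in both tables, with no overlap.

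Dbi (chr1:120113280-120121078), the acyl-CoA binding protein, was highest in Schwann cells. Its level was 67.6 in the 4 Schwann cells of library 1 and 73.4 in the joint table, with 76.7, 68.9 and 70.7 in the blocks, and all cells of both tables held it. Stromal cells came next among classes of 10 or more cells in both tables, at 8.65 and 3.44. Macrophages held 2.82 and 2.15, mural cells 2.64 and 1.71, delta cells 1.01 and 1.19 and beta cells 0.354 and 0.322. The 12 duct cells of the joint table held 24.8.

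These levels were compared between classes with limma on log2 of the level plus a pseudocount of 0.05. Each class in each table was 1 column, columns were centred on their median gene, and the library was a block. The threshold was a Benjamini-Hochberg adjusted p under 0.05 over 12077 genes. The pseudocount makes a difference understate the change of a gene that is near 0 on one side, and for Trem2 in particular the difference depends on it. Endocrine means the mean of beta, alpha and delta cells. A difference from this mean need not hold against each of these classes. Macrophage Lpl, at 3.12 (library 1) and 3.31 (joint table), was below alpha cells at 5.87 and 4.78. Stromal Lpl of library 1, at 3.85, was also below alpha cells. Stromal Clu of the joint table, at 2.45, was below delta cells at 5.51. Mural Clu, at 0.128 and 0.258, was near beta cells at 0.239 and 0.283. Without centring, the share of called genes that were higher went from 46.3% to 59.5% in Schwann, 41.6% to 64.6% in mural and 52.3% to 69.9% in stromal cells, and from 55.2% to 36.7% for macrophages against stromal and mural cells.

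Against endocrine cells, macrophages were higher for 6 members (Apoe, Lpl, Abca1, Lrp1, Trem2 and Dbi) and lower for Clu. The background in this comparison was 34.1% of all genes called, 17.4% higher and 16.8% lower. The Apoe difference was 9.03 on the log2 scale (SE 0.90, limma adjusted p = 1.45e-06), with 9.86 (library 1) and 8.20 (joint table). Trem2 differed by 5.77 (SE 0.61, adjusted p = 2.88e-06), Abca1 by 2.08 and Lrp1 by 2.20. Clu fell by 2.96 (SE 0.81, limma adjusted p = 0.00988). Lpl was higher by 1.60 (adjusted p = 0.0130), but when classes were taken from clusters of cells instead the difference was −0.16 and the call was lost.

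Schwann cells gave a column in the joint table alone, so their differences rest on 1 library, and the SE and p assume that this column varies like those of the other classes. They were tested against a background of 24% of genes called (11.1% higher and 12.9% lower). Apoe was higher by 8.46 (SE 1.22, limma adjusted p = 2.31e-04), Dbi by 6.77 (SE 0.50, adjusted p = 1.31e-06) and Lrp1 by 2.00 (adjusted p = 0.0271), and Lpl fell by 2.76 (adjusted p = 0.00536). With edgeR's quasi-likelihood test on summed UMIs only Apoe and Dbi of these 4 passed. Schwann Lpl was very low, at 0.145 per 10000 in the 47 cells of the joint table, whose median depth was 2008 UMIs. In the 4 Schwann cells of library 1 it was 0. The joint value was close to that of delta cells (0.220) and far below that of alpha cells (4.78). Mural cells, against a background of 35.2% (14.6% higher and 20.5% lower), were higher for Lrp1 by 3.05 (limma adjusted p = 8.75e-05) and Dbi by 1.36 (adjusted p = 0.0102). They were lower for Clu by −2.44 and Abca1 by −1.46 (adjusted p = 0.0297 and 0.00155 in limma), and the Clu call was lost without centring and with edgeR and DESeq2. The 2 libraries gave 1 direction for each of these mural calls.

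Stromal cells were higher than endocrine cells for 6 members, with a background of 27.8% of genes called (14.5% higher and 13.3% lower). The differences were 5.66 for Apoe, 2.36 for Clu, 2.38 for Lpl, 4.25 for Lrp1, 2.17 for Trem2 and 2.76 for Dbi, with limma adjusted p from 5.34e-06 for Lrp1 to 0.0413 for Clu. The Clu call was lost in 6 of 18 alternatives (highest adjusted p = 0.149), and the Trem2 call with a pseudocount of 0.5 (0.66, limma adjusted p = 0.128). The tables disagreed in size: Clu was higher by 3.64 (library 1) and 1.08 (joint table), and Trem2 by 3.70 and 0.63. Without the cells holding mesothelial markers, Clu no longer passed (2.25, adjusted p = 0.0637), while Apoe was at 6.25, Lpl at 3.01, Lrp1 at 4.69 and Dbi at 2.30. Trem2 then stood at 1.59 with limma adjusted p = 0.0444.

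The cells with and without mesothelial markers differed in these genes within library 1, where depth was alike (median 31431 and 24124 UMIs). The 17 cells with the markers held Apoe at 2.15, Lpl at 0.661 and Lrp1 at 1.85. The other 12 held Apoe at 19.4, Lpl at 8.36 and Lrp1 at 6.44. Dbi went the other way, at 11.4 in cells with the markers and 4.75 in the others, as did Trem2 at 1.101 and 0.404. Clu was high in both, at 12.7 and 18.9. In the joint table the 4 marked cells held Apoe at 10.3 and Clu at 18.1, and the other 75 held Apoe at 74.7 and Clu at 1.62. The cells of 1 table share a library, so these differences carry no test.

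**Figure D3:**
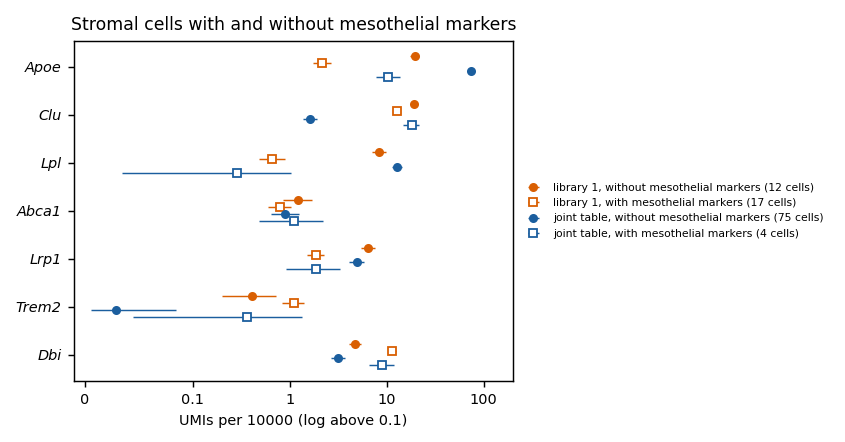
Levels of the 7 genes (x axis, UMIs per 10000, logarithmic above 0.1) in stromal cells with (open squares) and without (filled circles) mesothelial markers, with exact 95% Poisson intervals for counting error. In both tables Apoe, Lpl and Lrp1 are lower and Dbi is higher in the cells with the markers.

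Macrophages were also set against stromal and mural cells together, with a background of 24.8% of genes called (13.7% higher and 11.1% lower). Apoe, Abca1 and Trem2 were higher in macrophages, by 6.15, 2.62 and 4.90 (limma adjusted p = 1.56e-04, 1.76e-05 and 3.61e-05). Clu was lower by −2.92 and Lrp1 by −1.45 (limma adjusted p = 0.0207 and 0.0362). Lrp1 differed by −0.50 (library 1) and −2.40 (joint table). The Lrp1 call was lost in 4 of 18 alternatives, with the highest adjusted p at 0.159 in limma with a pseudocount of 0.01, and the Clu call in 1 (block 1 in place of the joint table, adjusted p = 0.0554). Without the cells holding mesothelial markers all 5 passed, with Apoe at 5.85, Abca1 at 2.53, Trem2 at 5.19, Clu at −2.87 and Lrp1 at −1.67.

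**Figure D4:**
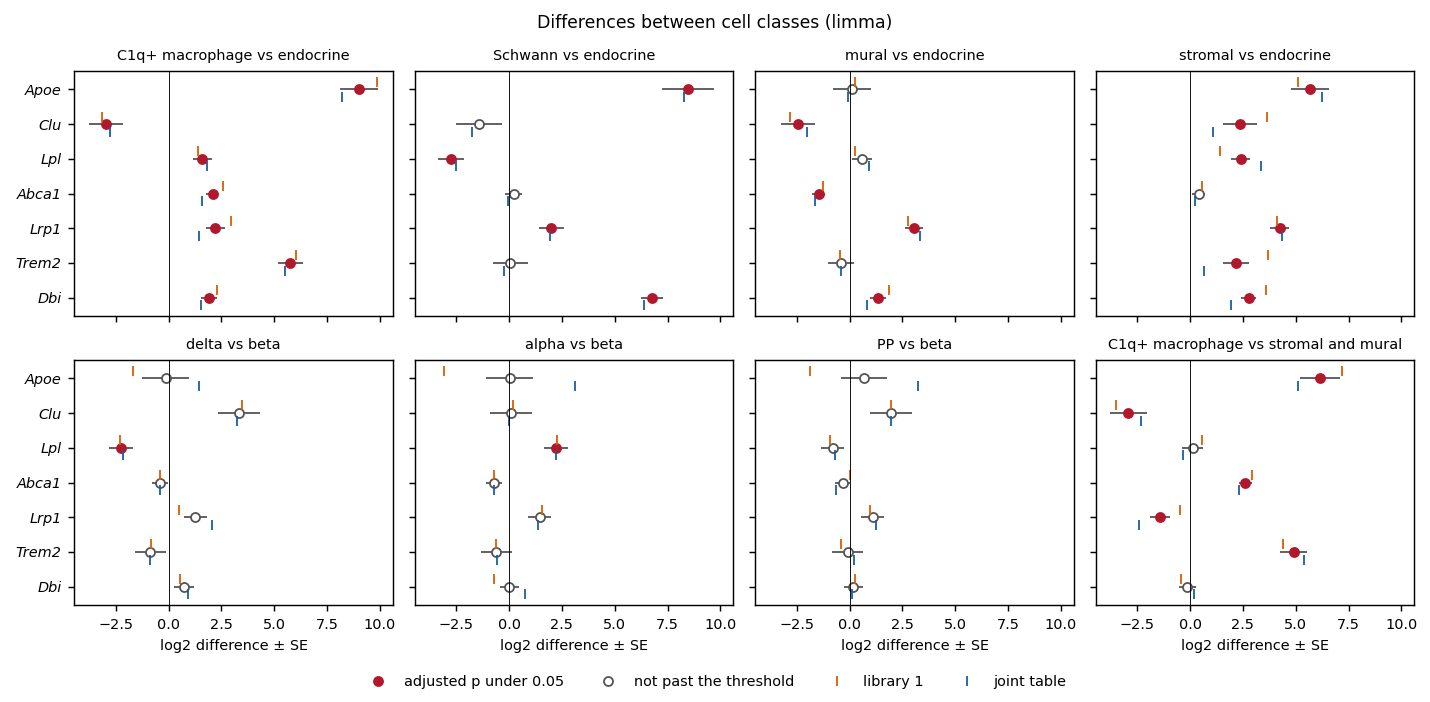
Log2 differences between cell classes (x axis, limma estimate with its SE) for the 7 genes in 8 comparisons, filled where the adjusted p was under 0.05, with ticks for library 1 and the joint table alone. Apoe ticks of the 3 comparisons with beta cells lie on opposite sides of 0, and those of Clu and Lpl in delta against beta lie close together.

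Among endocrine classes few genes passed in this fit, 2.48% of all genes for delta against beta cells (1.57% higher and 0.903% lower), 2.77% for alpha (1.76% higher and 1.01% lower) and 1.68% for PP cells (1.14% higher and 0.538% lower). The median gene of a class column differed: it stood at −2.94 and −2.95 on the log2 scale in beta cells and at −2.11 in delta cells of both tables, and differences are relative to it. Without centring, 97% of the genes called for delta cells were higher, against 63.5% with it, and 90.1% against 63.6% for alpha and 84.4% against 68% for PP cells. Of the members, Lpl was lower in delta cells by −2.25 (SE 0.56, limma adjusted p = 0.0467) and higher in alpha cells by 2.24 (SE 0.56, adjusted p = 0.0443). The delta call was lost in 10 of 19 alternatives and the alpha call in 8 of 19, while the sign of both held in all 19. Clu was 3.34 higher in delta cells but missed the threshold (SE 0.996, limma adjusted p = 0.113), with 3.45 (library 1) and 3.23 (joint table). Without centring Clu, Lrp1 and Dbi passed as higher in delta cells and Lpl did not pass. In PP cells none of the 7 passed in limma, and none had an unadjusted p under 0.05. edgeR called 2 there (Clu and Lrp1) and DESeq2 called 1 (Lrp1).

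The spread in that fit is shared with the small non-endocrine classes. A fit of the 4 endocrine classes alone, added after the first result was seen, tested 8487 genes and called 1383 (16.3%) for delta cells, 1262 (14.9%) for alpha cells and 1200 (14.1%) for PP cells. The endocrine fit has fewer columns and residual degrees of freedom than the larger fit. Its SE and p therefore rest in part on variance that limma shares across genes. In this fit Clu was higher by 3.22 in delta cells (SE 0.15, limma adjusted p = 2.18e-08) and by 1.90 in PP cells (SE 0.15, adjusted p = 3.16e-06). Lpl was higher by 2.16 in alpha cells and lower by −2.38 in delta cells and −0.87 in PP cells (limma adjusted p = 9.69e-07, 8.17e-07 and 0.00230). Lrp1 was higher by 1.38 and Abca1 lower by −0.79 in alpha cells (limma adjusted p = 0.0280 and 0.0170), though the Abca1 difference was −0.12 in the larger fit without centring. Apoe passed in none of the 3 comparisons in either fit: its alpha difference was −3.08 (library 1) and 3.13 (joint table).

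Clu, Lpl and Dbi were also compared as shares of cells at matched depth. After thinning to 2000 UMIs, Clu was found in 56.0% and 65.4% of delta cells, 50% and 24.5% of PP cells, 9.90% and 8.66% of alpha cells and 6.22% and 5.33% of beta cells. Macrophages, with little Clu, showed 0% and 0.465%. Lpl was found in 57.4% and 56.0% of alpha cells, 13.9% and 10.9% of beta cells and 0% and 5.14% of delta cells. Endothelial cells, low in Lpl, showed 0% and 1.93%. Dbi was found in 20% and 23.8% of delta cells and in 6.22% and 6.26% of beta cells. The C1q genes, used here as macrophage markers, were found in 20% and 19.6% of delta cells and in 5.15% and 3.26% of beta cells. The ratio of the Apoe level to the C1q level was 2.12 and 1.99 in macrophages but 0.199 and 0.624 in delta cells. The source of the C1q UMIs in delta cells was not tested, so whether they measure background is not known. The Dbi shares of delta cells, near those of C1q, were not read as above background. Median depth before thinning was 11000 and 5505 UMIs in delta cells and 39329.5 and 19956.5 in beta cells. Unthinned, Clu was found in 96.0% and 81.7% of delta cells and 53.0% and 40.3% of beta cells.

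**Figure D5:**
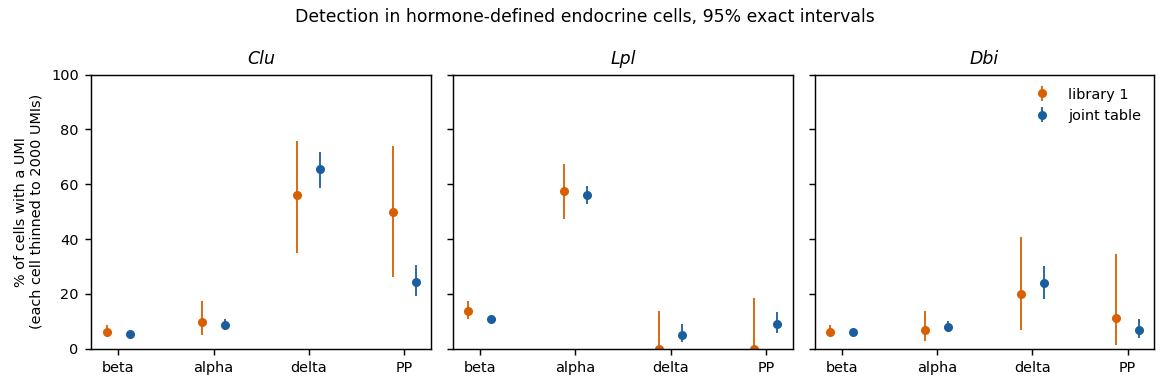
Share of beta, alpha, delta and PP cells with at least 1 UMI of Clu, Lpl or Dbi (y axis, percent) after each cell was thinned to 2000 UMIs, in library 1 and the joint table, with exact 95% intervals for counting error. Clu is highest in delta cells and Lpl in alpha cells in both tables, but in library 1 the Clu intervals of delta and PP cells overlap.

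The wider pathway was described over 7 lists of 89 lipid genes that include the members, of which 80 passed the filter. In macrophages against endocrine cells 41 were higher and 10 lower, so 63.8% passed against 34.1% of all genes, with a median difference of 1.30 against −0.07 over all genes. All 10 tested genes of the list of Trem2 signalling and lipid-associated macrophage genes were higher, a direction that choosing macrophage genes fixes. Tyrobp, the Trem2 adaptor, was at 8.32 and Lgals3, a galectin of lipid-laden macrophages, at 6.29. The 63.8% and the median of 1.30 include that list and the 7 members, all of which passed. The excess over all genes was therefore partly fixed by choice. List shares of the other comparisons also count the members. Of 12 sterol efflux and storage genes 10 were higher, and of 16 sterol and fatty acid synthesis genes 4 were lower and the others did not pass, with a median of −0.45. The receptors Lrp8 and Sort1 were lower by −2.39 and −2.35. In Schwann cells 21 list genes were higher and 4 lower, so 31.2% passed against 24% of all genes. After Apoe the highest were the tetraspanin Cd9 at 7.52 and the apolipoprotein Apod at 7.12, both from the joint table alone. Apod was at 21.2 per 10000 in Schwann cells of the joint table and 0.503 or lower in every other class, and the C1q-positive macrophages of the joint table held none.

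In mural cells 16 list genes were higher and 16 lower, 40% against 35.2% of all genes, with the fatty acid carrier Fabp4 at 6.10 and the cholesterol synthesis enzyme Sqle at −2.94. Fabp4 was at 24.6 and 8.76 per 10000 in endothelial cells and 14.2 and 1.71 in mural cells, and whether endothelial RNA adds to the mural value was not tested. In stromal cells 25 were higher and 5 lower, 37.5% against 27.8% of all genes, with the lipase inhibitor Angptl4 next after Apoe at 4.75. Without the cells holding mesothelial markers 24 were higher and 9 lower, against 29.1% of all genes called, and Angptl4 was at 4.92. Of the 80 genes 3 (3.75%) passed in each comparison with beta cells, 2 higher and 1 lower, near the 2.48% (delta), 2.77% (alpha) and 1.68% (PP) of all genes. Fabp5, a fatty acid carrier, was higher by 3.57 in delta cells, and Tspo, a mitochondrial membrane protein that binds cholesterol, by 1.47 in delta and 1.40 in PP cells. Npc2, a lysosomal cholesterol carrier, was higher by 1.31 in alpha cells, and the receptor Sorl1 was lower by −2.33 in alpha and −2.12 in PP cells.

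Genes with the pattern most like each member were taken by Pearson correlation over the 21 class columns, which share 2 libraries and so are not independent. Trem2 lay closest to Acp5 (0.953), Csf1r (0.952, itself a macrophage marker) and Tnip3 (0.949). Apoe lay closest to Ifi27l2a (0.881), Fam129a (0.839) and Pdlim4 (0.833), which were all highest in Schwann cells. Clu lay closest to Sox9 (0.857, itself a duct marker), Scara3 (0.841) and Myrf (0.81). Clu, Sox9 and Scara3 were all highest in the 12 duct cells of the joint table, at 157, 7.63 and 4.07 per 10000. In the other columns they reached at most 15.3, 0.423 and 0.288. Myrf was highest in stromal cells of library 1, at 1.60. Lpl lay closest to Pid1 (0.842), Pygl (0.808) and Pcyt1a (0.783). Abca1 lay closest to Tmem219 (0.914), Sirpa (0.87) and Ppm1h (0.853), Lrp1 to Gsn (0.843) and Cd302 (0.843), and Dbi to Cops6 (0.884), Dhrs1 (0.834) and Gpx4 (0.83).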

How the data were processed

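Single-cell RNA of islets was measured with the 10x Genomics 3′ v3 chemistry. For replicate 1 the authors deposited raw UMI counts per gene and cell, and for replicates 2 and 3 together they deposited the natural log of 1 plus UMIs per 10000. The submitters' processing notes name Cell Ranger 3.2.0 and 5.0.0, cutadapt 2.5, FastQC 0.11.8, Seurat 4.0.0 and the mm10 build. Strand settings are not given in the sources used here. Whole UMIs were recovered for 100% of 28955174 nonzero joint values, within a tolerance of 0.001.

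Kept cells had 500 genes or more, 1000 UMIs or more and no more than 20% mitochondrial UMIs (255 cells of library 1 exceeded this). The highest Scrublet scores (scanpy 1.11.5, Python 3.11.15), at 0.8% per 1000 cells, were removed, since the automatic threshold called 9, 3, 33 and 0. Thus 6 and 377 cells were removed. Any pair of barcode sets shared 0 to 6 barcodes. Genes needed 0.1 per 10000 in at least 2 of 21 columns, each of at least 10 cells. Class limits were set after marker levels were seen, and after results were seen block columns with a median gene at 0 were dropped and the fits with no filter or without the top cell were centred on the medians of the filtered genes. Tests used limma 3.58.1 (R 4.3.3, moderated variances with a trend, 8 residual degrees of freedom); edgeR 4.0.16 and DESeq2 1.42.0 on UMI sums were alternatives. List genes other than members were named as the largest 2 in each direction that passed, with 1 direction in both tables where both had a column, and similar genes as the 3 with the highest correlation. Some items that these rules name are not reported here. Gene positions are from GENCODE M21 on GRCm38.

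The members and lists were chosen with earlier results of these data known. The 2 libraries differ in mice, Cell Ranger version and gene set. The library was a block in the main fit, so an overall difference between libraries was removed. The limma p-values there measure how far class differences varied between the 2 libraries, pooled over classes and moderated across genes. Schwann cells had a column in the joint table alone, so their own spread was not measured. Intervals are exact, at 95%, and cover counting error only.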

Additional observations from a re-analysis of the deposited data

How the results depend on the processing

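Of 28 calls of members, 18 held in every alternative that gave a test, among them Apoe, Abca1, Lrp1, Trem2, Dbi and Clu in macrophages, Apoe and Dbi in Schwann cells and Lrp1 in mural and stromal cells. Differences of members that no setting called were not followed across settings, a rule set after their signs were seen to vary. Lpl changed sign for macrophages against endocrine cells when classes came from clusters (−0.16). Against stromal and mural cells its uncalled difference of 0.12 became −0.12 with a pseudocount of 0.5, −0.21 without centring, −0.16 with at least 2000 UMIs per cell, −1.55 by clusters (limma adjusted p = 0.0318), −0.19 without mesothelial-marked cells, and −0.00892 and −0.45 with block 1 or 3 in place of the joint table. The cause was not tested. Leaving out replicate 1, or replicates 2 and 3, gave −0.33 and 0.57.

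Counts of called members changed by over 1.5 times as follows. For Schwann cells the count was 2 in place of 4 with both edgeR scalings (TMM and RLE). For delta against beta cells it was 0 in place of 1 with a pseudocount of 0.01, with no replicate block, with no doublet removal, with a UMI-weighted mean and with block 1, 2 or 3. It was 2 with no filter, with hormone UMIs left out of the total, without the top cell of each gene, with at least 2000 UMIs and in the endocrine fit, and 3 without centring and with both edgeR scalings and DESeq2. For alpha cells it was 0 in place of 1 with a pseudocount of 0.01, with no replicate block, without the top cell, by clusters, with a UMI-weighted mean and with block 2 or 3. It was 2 without centring and 3 with both edgeR scalings, DESeq2 and the endocrine fit. For PP cells it was 2 in place of 0 with both edgeR scalings and the endocrine fit, and 1 with DESeq2. Where the count stayed at 1, Clu replaced Lpl for delta cells with a pseudocount of 0.5 and by clusters, and Lrp1 replaced Lpl for alpha cells with hormone UMIs left out. Smaller changes were 6 in place of 7 for macrophages in 3 settings, 3 in place of 4 for mural cells in 6, 5 in place of 6 for stromal cells in 7, 3 or 5 in place of 4 for Schwann cells in 6, and 4 or 6 in place of 5 for macrophages against stromal and mural cells in 6. The UMI-weighted mean, the blocks, the endocrine fit and the mesothelial split were chosen after seeing the data. Without the library block (the only block the labels allow, since all samples are in 1 group) the delta and alpha calls of Lpl were lost, at adjusted p = 0.0676 and 0.0640 in limma, as was the stromal call of Clu (adjusted p = 0.0550).

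Over all genes, limma called 2899 for Schwann cells, edgeR 943 (TMM) and 987 (RLE), DESeq2 1067, and limma with at least 2000 UMIs per cell 4491. The higher share was 46.3% in limma and 71.0%, 78.8% and 91.3% with those tools. For mural cells 4246 became 6821 with no filter, and 41.6% higher became 53.4%, 55.3% and 58.9% with the tools. For stromal cells 3361 became 5384 and 5582 with edgeR and 5217 with no filter. For delta cells 299 became 117 to 172 with a pseudocount of 0.01 or block 2 or 3, and 478 to 2410 with 9 other settings (edgeR TMM 1411, of which 52.0% were higher). For alpha cells 335 became 513 to 2697 with 7 settings (edgeR TMM 2501, 47.9% higher). For PP cells 203 became 99 to 126 with 3 settings and 307 to 1680 with 6 (edgeR TMM 1516, 47.7% higher). With no filter the higher share was 13.9% for delta, 23.7% for alpha, 27.2% for mural and 37.0% for stromal cells, and with hormone UMIs left out it was 53.0% for alpha and 56.3% for PP cells. Depth limits values that rest on few UMIs, such as Clu in macrophages (2 and 8) and Abca1 in mural cells (1 and 10), and the 2 libraries limit every test.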
